A study of Mus musculus with 6 samples.

Results

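The liver library of a mouse RNA end survey was set against the brain, lung, kidney, ovary and spleen libraries of the same survey. It consisted of every read in the liver list whose sequence was listed at 1 place only, which gave 78952 tags of the 839877 in all 6 libraries. The method, parallel analysis of RNA ends, ligates an adaptor to polyadenylated RNA that carries a 5′ monophosphate and reads about 20 bases from that end, so a tag marks the place where an RNA was cut or lost its cap. The RNA came from whole liver and, for comparison, from whole brain, whole lung, whole kidney, whole ovary and whole spleen of adult mice of a BALB-c background. No treatment or genotype was named for any library, and the number of animals behind each was not given in the sources used here. There was 1 library per tissue, so every difference below is between libraries, without a replicate check, and every interval is a 95% interval for counting error only.

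The liver makes most of the proteins of blood plasma, among them albumin, the apolipoproteins, the clotting factors and the protease inhibitors, and hepatocytes also carry out the urea cycle, bile acid synthesis and the oxidation of drugs. RNA fragments with a 5′ monophosphate come from decapping, from cutting within the chain and from processing of precursors. A tag level therefore counts such ends and is not a direct measure of how much intact RNA a tissue holds. Whole organs mix cell types, and fewer cells of a type and less RNA per cell cannot be told apart.

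Depth differed between libraries. Liver had 78952 unique tags on 45662 distinct 5′ ends, against 33382 tags in brain, 493121 in lung, 162270 in kidney, 29213 in ovary and 42939 in spleen. Levels are given as CPM, tags per 1000000 unique tags of a library. A count of 0 allows up to 3 tags, which is 38.0 CPM in liver but 89.9 CPM in brain, 6.08 in lung, 18.5 in kidney, 102.7 in ovary and 69.9 in spleen. The spleen library stood apart in base composition, with a mean of 30.1% G and C in its tags, whereas liver had 44.2% and the others 45.6% to 48.7%. Gene leads over spleen are also given over the next library, with spleen left out.

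The bases at some of the strongest ends of liver genes are shown first because the results on Alb, on the poly(A) signal and on Gnmt refer to them. Each line gives 9 bases before the end in lower case and the 20 bases of the tag in capitals, 5′ to 3′, as the deposited tags spell them on the strand of the transcript, in mm9 coordinates. The first pair are the main end of Alb at chr5:90905570-90905598 (plus strand) and the end 28 bases further on at chr5:90905598-90905626. The latter is called the second end by its place in print, not by rank. It had 348 liver tags, fewer than the 522 at the base next to the main end. Apoc1 (chr7:20274834-20274862, minus strand), Apoa2 (chr1:173156473-173156501, plus strand), Trf (chr9:103111213-103111241, minus strand) and Gnmt (chr17:46862660-46862688, minus strand) follow.
Alb main end: ctttaaacaTTTGACTTCTTGTCTCTGTG
Alb second end: gctgcaattAATAAAAAATGGAAAGAATC
Apoc1: tcacagaccAATAAAAAACGTGTAGAAGG
Apoa2: tgttttctcCAATAAATGCGGAAGGAGTT
Trf: acacagagcACAAAATAAAAACGACTGCT
Gnmt: taatgcagaTATTGCATTTGGGTGCAGAT
The letters AATAAA, the common form of the poly(A) signal, stand within the tag in the second end of Alb and in Apoc1, Apoa2 and Trf.

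All 4 defining hepatocyte markers were far above every other library. Alb, the gene of albumin, had 9134 liver tags, against 4 in brain, 889 in lung, 746 in kidney, 12 in ovary and 290 in spleen. Its liver level was 115691 CPM, 17.1 times that of spleen, the next highest (interval 15.2 to 19.3), and 25.2 times that of kidney with spleen left out. Ahsg, the gene of fetuin-A, had 1051 liver tags, against 1 in brain, 154 in lung, 95 in kidney, 3 in ovary and 19 in spleen, and led kidney 22.7 times (18.4 to 28.4). Apoa2, an apolipoprotein of high density lipoprotein, had 787 liver tags and none in brain or ovary, with 103 in lung, 81 in kidney and 12 in spleen, a lead of 20.0 times over kidney (15.9 to 25.4). Hpx, which binds free haem in plasma, had 221 liver tags, against 26 in lung, 16 in kidney and 1 in spleen, with none in brain or ovary, and led kidney 28.4 times (17.1 to 50.5). For each of these 4 genes the liver level lay above all other libraries, beyond counting error.

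Tags were summed in 2 kb windows on each strand. Of 1308 windows with a mean of at least 100 CPM over the 6 libraries, liver was at least 4 times above the highest other library in 121 (9.25%), a count of 0 being taken as 3 tags. These windows held 38.1% of all liver tags but 1.30% of the tags of the other 5 libraries together. The low share elsewhere follows in part from the rule that chose the windows. By the same rule spleen led 109 windows, brain 58, kidney 41, lung 29 and ovary 15. Those windows held 18.6% of spleen's own tags, 9.54% of brain's, 11.4% of kidney's, 13.1% of lung's and 5.70% of ovary's, so the share of a library in windows that it led was largest in liver.

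**Figure D1:**
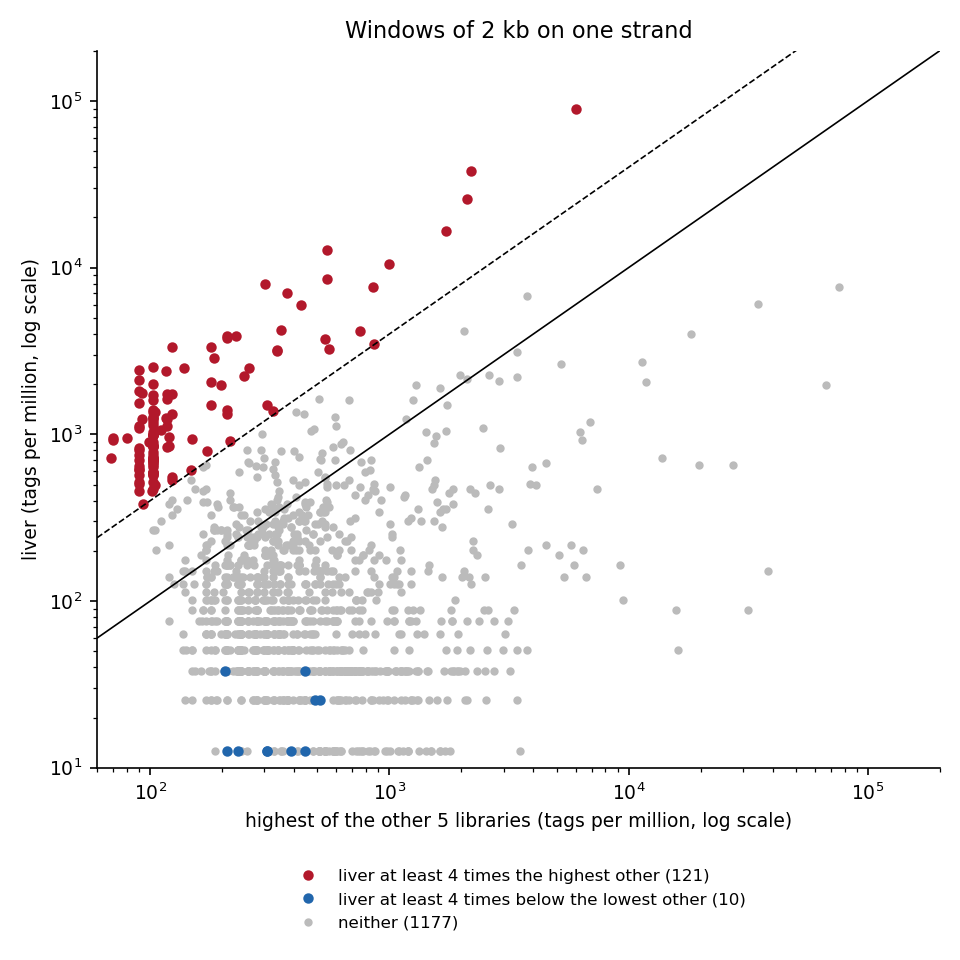
Each point is 1 of 1308 windows of 2 kb on one strand, with the liver level on the y axis against the highest of the other 5 libraries on the x axis, both in CPM on log scales. A library with no tag is drawn at the 3 tags that a count of 0 allows. The solid line marks equal levels and the dashed line a 4-fold lead of liver, above which 121 windows lie, while 10 windows (blue) lie at least 4 times below the lowest other library.

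The opposite pattern was rare. Liver was at least 4 times below the lowest other library in 10 of the 1308 windows (0.765%), and each of these had 1 to 3 liver tags. It was 28 with the spleen library left out and 2 with the trimmed mean scaling described below. Taken tissue by tissue, liver was at least 4 times higher than brain in 251 windows (19.2%) and lower in 218 (16.7%). Against lung it was higher in 196 (15%) and lower in 263 (20.1%). Against kidney the counts were 188 (14.4%) and 162 (12.4%), against ovary 201 (15.4%) and 248 (19%), and against spleen 263 (20.1%) and 289 (22.1%). Kidney thus had the fewest windows that differed from liver in either direction.

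The split between higher and lower depended on the scaling. A trimmed mean of M values (TMM), which sets depth from windows of moderate ratio, lifted liver by 0.91 on the log2 scale relative to brain, 0.53 to lung, 0.51 to kidney, 1.30 to ovary and 0.67 to spleen. The factors were computed from the tags in the 1308 windows, which held 61.9% of liver tags, and then applied to the full depths. The lifts therefore also carry differences in that share between libraries, and their size is uncertain. Before scaling, the median log2 ratio of liver over the other library was −0.24 for brain, −0.51 for lung, −0.10 for kidney, −0.70 for ovary and −0.46 for spleen. With this scaling, liver was higher in 368 and lower in 125 windows against brain, and higher in 230 and lower in 166 against lung. The counts were 235 and 107 against kidney, 352 and 69 against ovary, and 338 and 204 against spleen. Over the 1308 windows, Pearson's r of log2(CPM + 1) with liver was 0.40 for kidney, 0.26 for lung, 0.14 for spleen, 0.03 for ovary and −0.07 for brain. These values share the liver library. The scaling multiplies every gene ratio given below by 1.87 over brain, 1.44 over lung, 1.42 over kidney, 2.46 over ovary and 1.59 over spleen.

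A few genes made up much of the library. The single window at chr5:90904001-90906000 on the plus strand, the 3′ part of Alb, held 8.89% of all liver tags (8.70% to 9.09%). The 10 strongest windows held 22.5% (22.2% to 22.8%) and the 50 strongest 35.3%. In the other libraries the 10 strongest windows held 10.7% in brain, 15.5% in lung, 16.7% in kidney, 11% in ovary and 10.3% in spleen. The strongest liver end of all was on chromosome 18, at position 65408578 of the plus strand, with 2796 tags (35414 CPM), against 1 in brain, 147 in lung, 340 in kidney, 2 in ovary and 26 in spleen, 16.9 times kidney (15.1 to 19). No gene on that chromosome could be named through the sequences used here. From general knowledge of mm9 this is the place of the hairpin of miR-122, the abundant microRNA of hepatocytes. Within 50 bases of it, 99.8% of the liver tags were at this one base, and another 181 liver tags lay at position 65408520.

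Tags were then summed by gene, named through RefSeq sequences. Of 5728 genes with at least 20 tags over the 6 libraries, 107 (1.87%) were at least 4 times higher in liver than in any other library, and 36 (0.628%) were at least 4 times lower than in the lowest. Among the 1309 genes with a mean of at least 100 CPM, 91 (6.95%) were higher by this rule. The 107 genes held 35.4% of liver tags, against 0.392% in brain, 1.05% in lung, 2.04% in kidney, 0.531% in ovary and 1.67% in spleen. Of the 25 genes with most liver tags, 21 were among the 107. Scd1, Gpx1, Hmg20b and Ndrg2 were the exceptions.

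**Figure D2:**
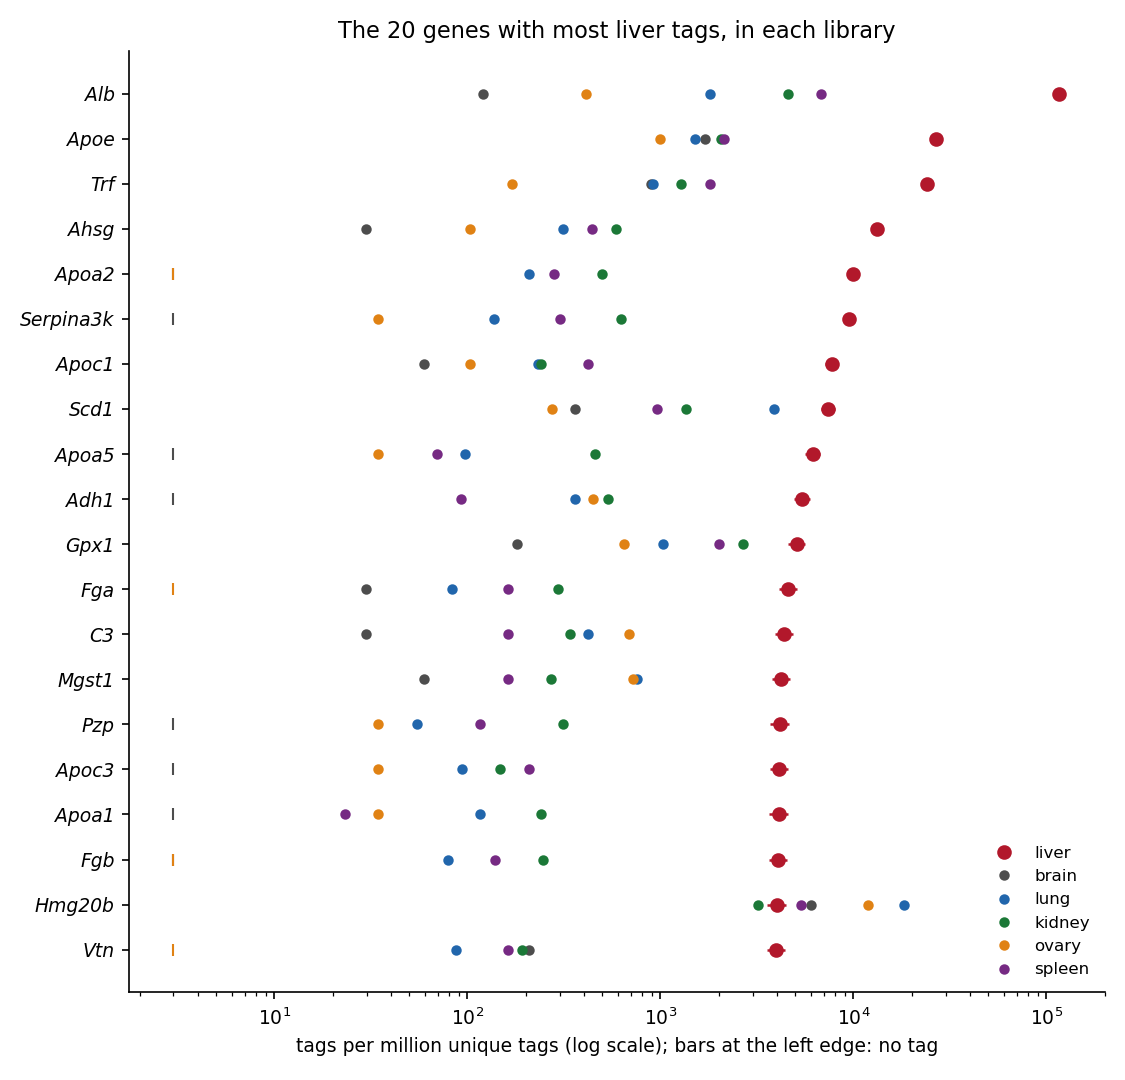
The level of the 20 genes with most liver tags in each library, in CPM on a log scale, ordered by liver level. Bars through the liver points are exact Poisson intervals for counting error, and a short bar at the left edge marks a library with no tag. Alb tops the order at 115691 CPM in liver, and the points of Scd1, Gpx1 and Hmg20b show another library within 4-fold of liver or above it.

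The plasma carriers gave the largest share, most of it from Alb. They held 16.9% of liver tags, against 0.123% in brain, 0.370% in lung, 0.804% in kidney, 0.130% in ovary and 0.960% in spleen. Without Alb they held 5.30% of liver tags, less than the apolipoproteins. Of 15 members with enough tags, 10 (66.7%) were higher in liver by the 4-fold rule. Over all 5728 genes 1.87% were higher and 0.628% lower, and 6.95% were higher among those with a mean of at least 100 CPM. These shares are the background for each group count below. The group lists were written with earlier results of these data known, so the counts describe the groups and test nothing. None of the 15 was lower, which says little at a background of 0.628%. Trf, the gene of transferrin, the iron carrier, had 1900 liver tags, against 30 in brain, 451 in lung, 208 in kidney, 5 in ovary and 78 in spleen, and led spleen 13.2 times (10.6 to 16.8) and kidney, the next, 18.8 times. Rbp4, which carries retinol, had 260 liver tags, against 1 in brain, 72 in lung, 38 in kidney, 0 in ovary and 4 in spleen (14.1 times kidney, 9.98 to 20.3). Gc, the vitamin D binding protein, had 209 liver tags, against 0 in brain, 40 in lung, 31 in kidney, 1 in ovary and 4 in spleen (13.9 times kidney, 9.47 to 20.9). In all of these, liver was well apart from a low band formed by the other libraries. Igfbp4, an insulin-like growth factor binding protein, had 110 liver and 102 kidney tags and did not reach the 4-fold lead (2.22 times, 1.68 to 2.93).

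Apolipoproteins and lipid transport genes followed with 6.67% of liver tags, against 0.183% in brain, 0.263% in lung, 0.451% in kidney, 0.134% in ovary and 0.340% in spleen. Of 15 members, 9 were higher in liver. Apoe, a ligand for lipoprotein receptors, had 2120 liver tags, against 57 in brain, 747 in lung, 334 in kidney, 29 in ovary and 92 in spleen. It was present in every library, and the other 5 levels lay between 992.7 CPM (ovary) and 2143 CPM (spleen), with liver at 26852 CPM, 12.5 times spleen (10.2 to 15.6) and 13 times kidney. Apoc1 had 610 liver tags, against 2 in brain, 115 in lung, 39 in kidney, 3 in ovary and 18 in spleen (18.4 times spleen, 11.6 to 31.3, and 32.1 times kidney). Apoa5, a regulator of plasma triglyceride, had 487 liver tags, against 0 in brain, 48 in lung, 74 in kidney, 1 in ovary and 3 in spleen (13.5 times kidney, 10.6 to 17.5). Apoc3 had 325 liver tags and Apoa1, the main protein of high density lipoprotein, 323. Neither had a tag in brain, and each had 1 in ovary. Apob, the backbone of very low density lipoprotein, fell just under the rule, with 116 liver and 60 kidney tags (3.97 times, 2.89 to 5.52).

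Clotting factors, complement and protease inhibitors formed the rest of the secreted group. Of 16 coagulation and fibrinolysis genes, 13 were higher in liver, and together they held 2.79% of its tags, against 0.0359% in brain, 0.0785% in lung, 0.205% in kidney, 0.0308% in ovary and 0.0978% in spleen. The 3 fibrinogen chains, Fga, Fgb and Fgg, had 362, 322 and 164 liver tags and led kidney 15.5, 16.5 and 13.5 times. Vtn, the gene of vitronectin, had 314 liver tags, against 7 in brain, 43 in lung, 31 in kidney, 0 in ovary and 7 in spleen. It led brain 19 times (9.10 to 47.6), the next highest.

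Of 16 serpins and other protease inhibitors, 13 were higher in liver, and they held 2.70% of its tags. Serpina3k had 747 liver tags, against 0 in brain, 68 in lung, 101 in kidney, 1 in ovary and 13 in spleen (15.2 times kidney, 12.3 to 18.9). Pzp, an alpha-macroglobulin, had 328, and Itih4, a relative of the inter-alpha-trypsin inhibitor heavy chains, 298. Serpina1d, an alpha-1-antitrypsin, had 114 liver tags, against 0 in brain, 14 in lung, 6 in kidney, 0 in ovary and 1 in spleen. Its measured lead over kidney was 39.1 times (17.4 to 108.6), or 14.1 times over ovary with the count of 0 taken as 3 tags. The Serpina1 genes are near copies of one another, so reads that they share are missing from these counts and the split among them is uncertain.

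Complement was less uniform. Of 10 genes, 5 were higher in liver, and the group held 1% of liver tags, against 0.0120% in brain, 0.114% in lung, 0.0992% in kidney, 0.113% in ovary and 0.0652% in spleen. C3, the central component, had 344 liver tags, against 1 in brain, 208 in lung, 55 in kidney, 20 in ovary and 7 in spleen (6.36 times ovary, 4.06 to 10.6). Mbl2, a mannose binding lectin, had 107 liver tags, with 8 in lung, 9 in kidney and 1 each in brain and ovary (24.4 times kidney, 12.4 to 54.9). Hc, the gene of component 5, had 28 liver tags and 231 lung tags and was not higher in liver (0.76 times lung, 0.49 to 1.12).

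Acute phase and iron genes had 2 of 11 members higher in liver (18.2%, against 1.87% of all genes). Those were Hamp, the gene of hepcidin, which limits iron uptake, with 102 liver tags against 16 in lung, 6 in kidney and 3 in spleen (18.5 times spleen, 6.15 to 91.1, and 34.9 times kidney), and Crp, the gene of C-reactive protein, with 68 against 4 in lung, 5 in kidney and 2 in spleen. With the count of 0 in ovary taken as 3 tags, the lead of Hamp was 12.6 times. Hp, the gene of haptoglobin, had 184 liver tags but 991 in lung, so that its levels in both were within counting error of each other (1.16 times, 0.99 to 1.36). Fth1, the heavy chain of ferritin, was lower in liver than in kidney (92 and 424 tags, 0.45 times, 0.35 to 0.56). Among the major urinary proteins only Mup3 had enough tags, 164 in liver against 19 in lung, 13 in kidney and 4 in spleen. These genes are near copies too, and most of the family had no unique tag.

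**Figure D3:**
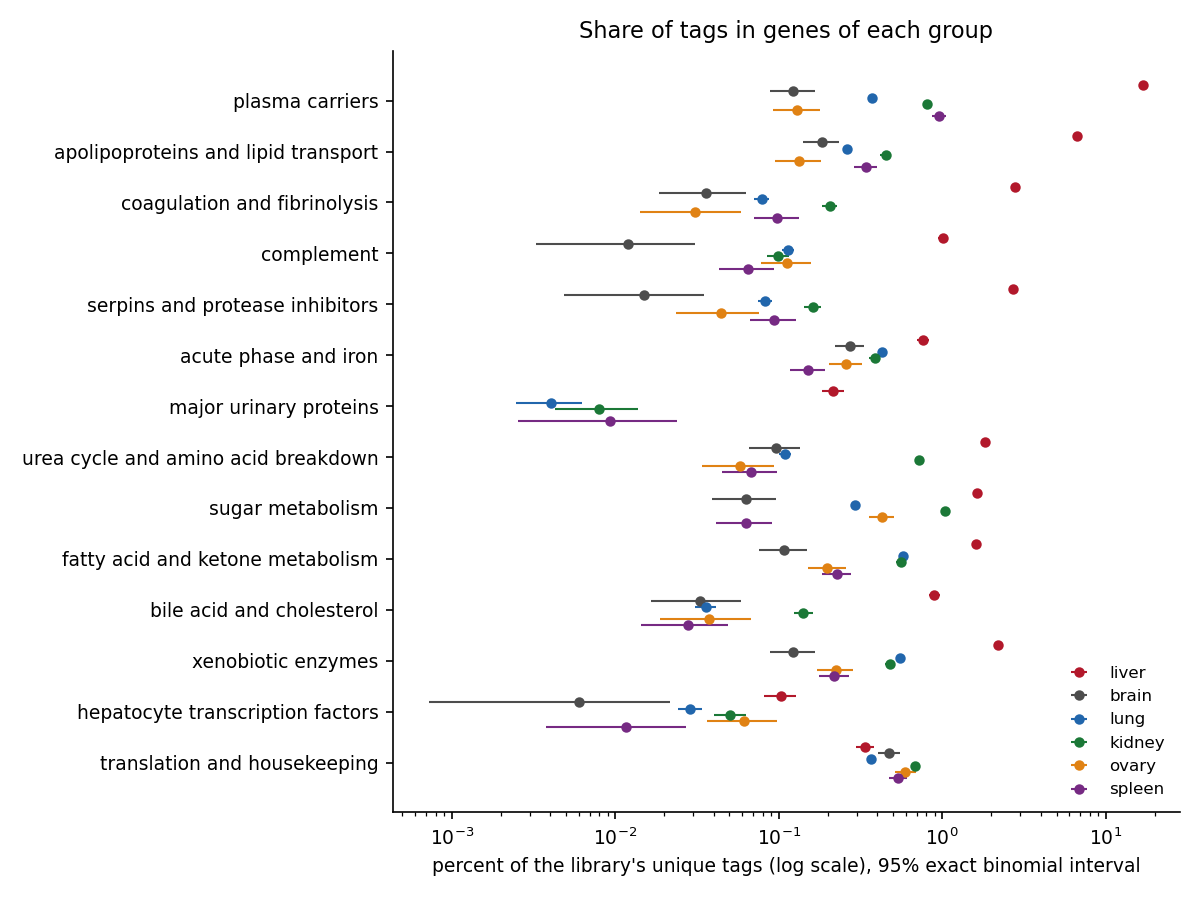
The percent of each library's unique tags that fell in the genes of each group, on a log scale, with exact binomial intervals. A library with no tag in a group has no point. Liver stands to the right of all others in the secreted groups, from 16.9% for plasma carriers to 1% for complement, and is nearer to kidney in amino acid and sugar metabolism. In translation and housekeeping liver has 0.338%, with an interval that overlaps lung's. Its order there against brain, lung and ovary turns with the trimmed mean scaling, whose size is uncertain.

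Urea cycle and amino acid genes held 1.81% of liver tags and 0.723% of kidney tags, against 0.0582% to 0.109% in brain, lung, ovary and spleen, and 6 of 28 were higher in liver by the rule. Gnmt, which methylates glycine, had 273 liver tags, against 0 in brain, 27 in lung, 22 in kidney, 0 in ovary and 2 in spleen (25.5 times kidney, 16.5 to 41.4). Cps1, the first enzyme of the urea cycle, had 117 liver and 20 kidney tags (12.0 times, 7.44 to 20.4). Arg1, its last enzyme, had 85 liver and 19 kidney tags (9.19 times, 5.54 to 16). Not every step was so. Hgd, an enzyme of tyrosine breakdown, had 187 liver and 368 kidney tags (1.04 times, 0.87 to 1.25), and Ass1, of the urea cycle, had 47 and 101 (0.96 times, 0.66 to 1.36).

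The sugar metabolism list, which also holds alcohol and aldehyde dehydrogenases, had 2 of 16 genes higher in liver (12.5%, against 1.87% of all genes). Neither acts on sugars. They were Akr1c6, a hydroxysteroid dehydrogenase, and Adh1, an alcohol dehydrogenase. Adh1 had 429 liver tags, against 0 in brain, 178 in lung, 87 in kidney, 13 in ovary and 4 in spleen (10.1 times kidney, 8.03 to 12.9). Sord, sorbitol dehydrogenase, had 170 liver and 348 kidney tags, and the interval of the ratio, 0.83 to 1.21, included equal levels. The group as a whole made up 1.62% of liver tags and 1.05% of kidney tags.

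Bile acid and cholesterol genes were higher in liver in 6 of 10 cases. Slc10a1, the bile salt uptake carrier, had 70 liver tags against 9 in lung, 5 in kidney and 1 in spleen (28.8 times kidney, 11.8 to 91.4), and Slc27a5, a bile acid CoA ligase, 126 against 14 in kidney (18.5 times, 10.6 to 34.8). With the count of 0 in ovary taken as 3 tags, the lead was 8.63 times for Slc10a1 and 15.5 times for Slc27a5. Fatty acid and ketone genes were higher in 2 of 22, Ces1c and Ces3a, both carboxylesterases. That is 9.09%, against 1.87% of all genes and 6.95% of those with a mean of at least 100 CPM. Scd1, the stearoyl-CoA desaturase, had 584 liver tags, against 12 in brain, 1922 in lung, 220 in kidney, 8 in ovary and 41 in spleen. Its liver level, 7397 CPM, was 1.90 times that of lung (1.73 to 2.08), below the 4-fold rule.

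Fatty acid and ketone genes held 1.62% of liver tags, against 0.108% in brain, 0.576% in lung, 0.560% in kidney, 0.199% in ovary and 0.226% in spleen. Xenobiotic enzymes held 2.21% of liver tags, against 0.123% in brain, 0.554% in lung, 0.477% in kidney, 0.223% in ovary and 0.219% in spleen, and 14 of 28 were higher in liver. Mgst1, a membrane glutathione transferase, had 333 liver tags, against 2 in brain, 373 in lung, 44 in kidney, 21 in ovary and 7 in spleen (5.58 times lung, 4.80 to 6.48). Cyp2e1, which oxidises ethanol, had 250 liver tags, against 0 in brain, 25 in lung, 60 in kidney, 0 in ovary and 3 in spleen (8.56 times kidney, 6.44 to 11.5). Cyp2c29 had 117 liver tags against 14 in lung, 9 in kidney and 3 in spleen (21.2 times spleen, 26.7 times kidney). With the count of 0 in ovary taken as 3 tags, its lead was 14.4 times. Cyp2c and Ugt2b genes have close relatives, with the same limit on unique reads as above. The antioxidant enzymes Sod1 (157 liver tags, 1.52 times spleen and 1.86 times lung) and Cat (59 liver tags, 1.33 times kidney) were below the rule.

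Transcription factors of hepatocytes gave few tags. None of 7 with enough tags was higher by the rule, which says little where the share over all genes was 1.87%. The 13 members with any tag had 81 liver tags together, against 2 in brain, 141 in lung, 82 in kidney, 18 in ovary and 5 in spleen. That was 0.103% of liver tags (0.0815% to 0.127%), against 0.00599% in brain, 0.0286% in lung, 0.0505% in kidney, 0.0616% in ovary (0.0365% to 0.0974%) and 0.0116% in spleen. Creb3l3 was the best covered, with 22 liver tags and 1 each in lung, kidney and spleen (12.0 times spleen, 1.93 to 493.8, and 45.2 times kidney), not called because the count of 0 in ovary allows 102.7 CPM, within 4-fold of the liver level. The group's median log2 ratio was −0.39, and liver was highest for 2 of the 7. None of 13 translation and housekeeping genes was higher, where the share over all genes was 1.87%. This group held 0.338% of liver tags, against 0.473% in brain, 0.366% in lung, 0.681% in kidney, 0.596% in ovary and 0.538% in spleen. The liver interval (0.299% to 0.381%) overlapped that of lung (0.349% to 0.383%). With the trimmed mean scaling liver was higher than brain, lung and ovary by 0.42, 0.42 and 0.48 on the log2 scale, but the size of that scaling is uncertain.

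Over all liver groups together, 83 of 195 genes (42.6%) were higher in liver, against 1.87% of all 5728 genes. None was lower, against 0.628% of all genes, and a call of lower needs tags in all 5 other libraries. The median log2 ratio of liver over the highest other library was 1.57 for the 195 genes, against −1.83 over all 5728 genes. Both medians are set partly by counts of 0 taken as 3 tags. The lists were written with earlier results of these data known, so these contrasts with all genes are not independent support. Of the 107 genes higher in liver, the other 24 were in none of these groups. Among them were H2-Q10, a secreted class I histocompatibility gene, Pemt, which makes phosphatidylcholine, Urah, an enzyme of urate breakdown, Asgr1, the asialoglycoprotein receptor, and Tmprss6, a protease that lowers hepcidin. They were named after their values were seen.

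Genes low or missing in liver were of mixed kinds. Of the 36 lower by the rule, Timp2, a metalloprotease inhibitor, had 1 liver tag, against 9 in brain, 231 in lung, 10 in kidney, 7 in ovary and 7 in spleen. Eif4h, a translation factor, had 3 against 10 in brain, 160 in lung, 55 in kidney, 6 in ovary and 26 in spleen, and Slc25a4, a mitochondrial ADP/ATP carrier, 2 against 19 in brain, 95 in lung, 60 in kidney, 11 in ovary and 22 in spleen. Flna, an actin crosslinker, Pcf11, Hnrnpk and Purb were also among the 36. The 36 became 91 without spleen and 4 with the trimmed mean scaling. Most tag-rich of the genes with no liver tag were Miox (456 kidney and 101 lung tags), an inositol oxygenase, Tpm3 (481 lung tags), a tropomyosin, and Dnase1 (383 kidney and 53 lung tags). In all, 1220 of the 5728 genes had no tag in liver, which allows each up to 38.0 CPM. With 0 taken as 3 tags, such a gene needs higher levels elsewhere to be called lower than a gene with 1 liver tag. Tpm3, with 117.1 CPM in its lowest other library, was not called. Aktip was called with 1 liver tag and 68.5 CPM in its lowest other library. The count of 36 is therefore partly set by the rule.

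Other cell types of the liver left a small trace. Of the 8 macrophage markers with enough tags, 1 was higher in liver by the rule (1.87% of all genes were). This was Cd5l, a protein secreted by tissue macrophages, with 48 liver tags, against 0 in brain, 5 in lung, 6 in kidney, 0 in ovary and 4 in spleen (6.53 times spleen, 2.39 to 24.9, and 16.4 times kidney). Clec4f, a receptor of Kupffer cells, had 16 liver tags, 3 in lung and 1 in kidney. The others were not above every library beyond counting error. C1qc had 5 liver and 26 spleen tags (0.10 times, 0.03 to 0.28), Lyz2 2 liver and 146 lung tags (0.09 times, 0.01 to 0.31) and Adgre1 2 liver and 7 spleen tags (0.16 times, 0.02 to 0.82). C1qa (0.66 times spleen), Cd68 (0.27 times spleen) and C1qb (1.06 times ovary) had intervals that included equal levels. Of the bile duct markers, the keratins Krt19 and Krt7 were at 0 in liver, Spp1 had 5 liver tags and Epcam 2. The 6 stellate markers with any tag summed to 7 liver tags. Of the liver endothelium markers, Stab2 had 4 liver tags and Stab1 and Pecam1 1 each. Lymphocyte and antigen presenting markers held 0.0393% of liver tags against 0.885% in spleen.

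Markers of the other organs were also counted in liver. Scgb1a1, the club cell secretoglobin of airways, had 174 liver tags against 35750 in lung, 0.0304 times the lung level. Kap, the kidney androgen regulated protein, had 25 against 8753 in kidney, and Snap25, a neuronal gene, 2 against 33 in brain. In the other direction, the 25 strongest of the 107 liver genes reached a median of 0% of their liver level in brain, 2.27% in lung, 6.04% in kidney, 0.555% in ovary and 3.18% in spleen. The 107 genes were chosen as at least 4 times above every other library, so low levels elsewhere were partly fixed by the choice.

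The tags of the 107 genes in other libraries fell mostly on ends also seen in liver. The share was 72.5% in brain, 74.3% in lung, 67.2% in kidney, 62.6% in ovary and 87.0% in spleen. For comparison, 216 genes that were not called had at least 20 liver tags and a mean of at least 100 CPM. Their share was 40.2% in brain, 58.3% in lung, 30.0% in kidney, 49.5% in ovary and 62.6% in spleen. The 107 genes were chosen for their high liver counts and so have many liver ends, 783 in Alb alone. The libraries were barcoded per tissue, per the labels' protocols, and the part of transfer between libraries in these low levels was not tested.

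Albumin ends were examined along the gene. The Alb tags spanned 15.7 kb, with 783 distinct ends in liver. One base, chr5:90905579 on the plus strand, held 2478 of 9134 liver tags (27.1%), or 31386 CPM, 36.4 times spleen (26.4 to 51.9). The same base had 1 tag in brain, 114 in lung, 80 in kidney, 0 in ovary and 37 in spleen. It held 12.8% of the Alb tags in lung, 10.7% of those in kidney and 12.8% of those in spleen. In spleen a larger share lay at the second end printed above, 103 of 290 (35.5%), where liver had 348 tags (3.81%), lung 18 and kidney 1. At that base liver was only 1.84 times spleen (1.47 to 2.31).

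**Figure D4:**
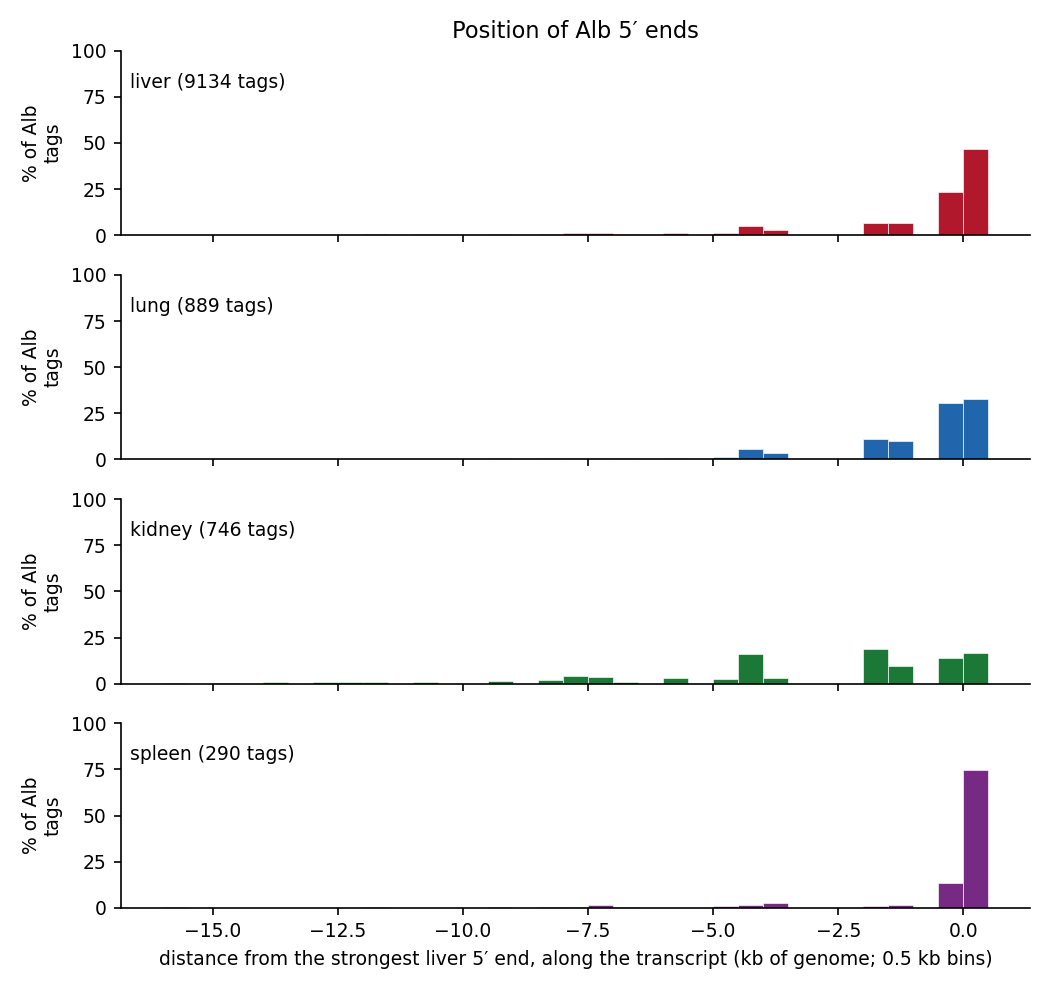
Percent of each library's Alb tags in bins of 0.5 kb along the genome, by distance from the strongest liver end, for the 4 libraries with most Alb tags. Bins before 0 lie upstream in the transcript. Liver, lung and spleen have most tags in the bin that starts at 0 or in the one before it (46.6%, 32.5% and 74.5% at 0), while kidney is spread more widely, with 16.8% there.

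Kidney differed from liver in this spread. Of the Alb tags, 82.8% lay in the last 2 kb of the gene in liver, against 82.2% in lung, 57.9% in kidney and 90.3% in spleen. The same order of liver over kidney held for Trf (76.3% in liver, 58.2% in kidney), Fga (75.1% and 62.5%) and Pzp (53.7% and 29.4%), whereas C3 had 43.0% in liver and 60.0% in kidney. Apoa1 and Apoa2, which are shorter, lay wholly within 2 kb.

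Some tags of Alb were listed elsewhere. A window at chr16:15822001-15824000 on the minus strand had 276 liver tags, and 273 of them matched the first 18 bases of an Alb stretch exactly. One at chr2:80666001-80668000, also on the minus strand, had 107 such tags in liver, against 0 in brain, 6 in lung, 0 in kidney, 0 in ovary and 9 in spleen. These are counted as windows at their listed places and not in Alb.

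Ends at the poly(A) signal were common in liver. Tags that held AATAAA in their first 20 bases made up 9.69% of liver tags (9.48% to 9.90%), against 4.37% in brain, 8.78% in lung, 2.28% in kidney, 3.87% in ovary and 38.0% in spleen. Liver was thus above 4 libraries and far below spleen. Within the 107 liver genes the share was 10.6% in liver, 13.7% in brain and 11.2% in lung. It was 4.72% in kidney, 16.8% in ovary and 34.1% in spleen. Brain and ovary had 131 and 155 tags in these genes. With Alb left out of every library, it was 13.4% in liver (12.9% to 13.9%), 14.2% in brain (8.62% to 21.5%) and 12.9% in lung. The others were 6.05% in kidney, 17.5% in ovary (11.6% to 24.7%) and 31.3% in spleen. The liver interval then overlapped those of brain, lung and ovary, so its order against them was not settled. Liver stayed above kidney and below spleen. The end of Apoc1 printed above held 133 of 610 liver tags (21.8%), that of Apoa2 93 of 787 (11.8%) and that of Trf 103 of 1900 (5.42%).

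A sharp liver end of another sequence was that of Gnmt printed above, which held 138 of 273 liver tags (50.5%). It was rare elsewhere, with 0 tags in brain, 5 in lung, 4 in kidney, 0 in ovary and 1 in spleen.

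Several strong ends followed bases of the ligated adaptor. At these, the genomic bases before the end were the same as the last bases of the adaptor that the labels give. The matching letters are in capitals, followed by the tag in lower case, for Hmg20b (chr10:80808852-80808880, minus strand), Vtn (chr11:78315728-78315756, plus strand), Hgd (chr16:37631890-37631918, plus strand) and Ndrg2 (chr14:52525061-52525089, minus strand).
Hmg20b: CAGTCCGACagccccttcccctgcgcctt
Vtn: ctgcCCGACctctgagaagtaggaatcag
Hgd: gagcCCGACagagcctaagtgagactgga
Ndrg2: agGTCCGACtgcttggggcttggcatcag
A match of 4 or more bases was found at 9 of 185 liver ends with at least 20 tags and readable bases before them (4.86%), at 0.529% of ends with 2 to 19 tags and at 0.201% of ends with 1 tag. The share of ends with at least 20 tags was 60% in brain (3 of 5 ends), 4.29% in lung, 8.95% in kidney, 36.4% in ovary (4 of 11 ends) and 2.94% in spleen. Of the tags at such ends, matching ones held 5.05% in liver, against 24% in brain, 16.6% in lung, 10.2% in kidney, 21.5% in ovary and 9.58% in spleen, so liver had the lowest share.

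These ends weigh on single genes more than on the lists. Hmg20b, a chromatin protein gene, had all 316 liver tags at this base, and the same base had 202 tags in brain, 8969 in lung, 517 in kidney, 348 in ovary and 230 in spleen. The end held 36.6% of the liver tags of Vtn, 49.2% of those of Hgd, 33.8% of those of Pemt and 29.8% of those of Ndrg2. Ndrg2 had 258 liver and 120 brain tags, and the interval of the ratio, 0.73 to 1.14, included equal levels. Without the matching end it had 181 and 46, or 1.66 times brain. Bases before the end could be read for 43.2% of all ends. With the matching ends among these left out, an alternative chosen after seeing the data, 121 windows and 107 genes were again higher in liver, the genes being the same 107. The cause of the match was not tested.

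Few liver windows were dominated by 1 base. In windows with at least 20 tags, the strongest base held a median of 13% of the window's liver tags (457 windows). With every library thinned to 29213 tags the median was 13.9% in liver (158 windows), against 10% in brain, 15% in lung, 13% in kidney, 24.7% in ovary and 28.9% in spleen, so liver lay between kidney and lung. Windows with at least 50% of their tags at 1 base made up 13.9% of those in liver after thinning. In the other libraries they were 20.3% in brain, 32.4% in lung, 24.2% in kidney, 40.9% in ovary and 22.7% in spleen, all above liver. In windows with at least 50 tags after thinning, the share was 21.4% in liver and slightly lower in spleen, at 20.4%.

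The first base of the liver fragments was most often U. It was U in 44.8% of liver tags, against 28.2% in brain, 32.7% in lung, 29.9% in kidney, 34.6% in ovary and 36.9% in spleen. With each distinct end counted once, so that the strong Alb end has no more weight than any other, U still led in liver at 42.4%, against 30.8% in brain, 33.7% in lung, 31.7% in kidney, 33.4% in ovary and 36.9% in spleen. G was the rarest first base in liver (10.5% of tags) and in the other 5 libraries, 7.79% to 10.1%. At the second base U stood at 31.6% in liver, within the 30.8% to 34.1% of the others.

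**Figure D5:**
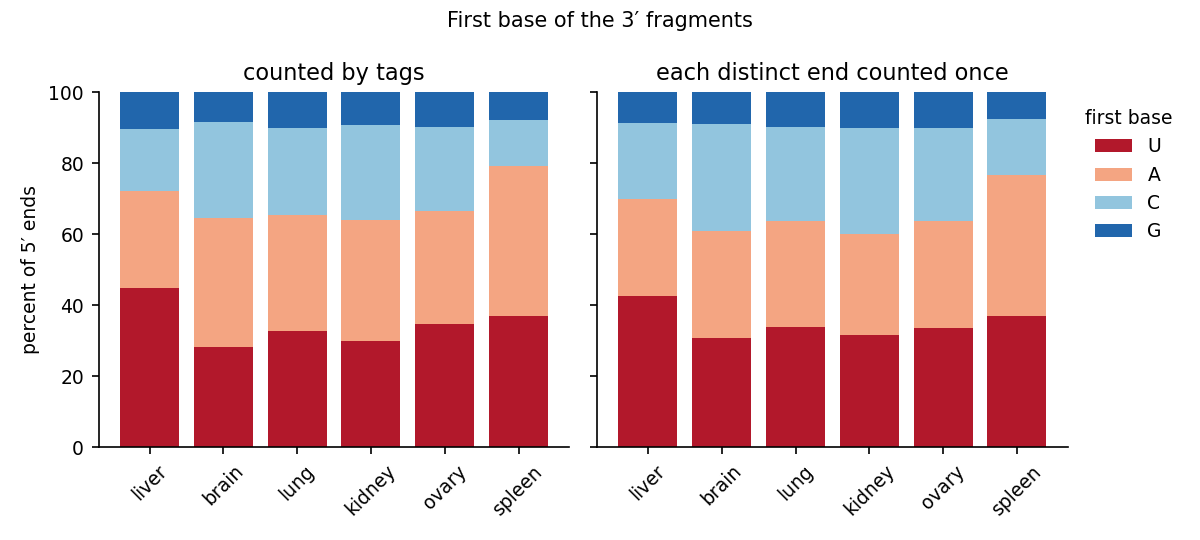
The first base of the fragments in each library as percent of tags (left) and of distinct ends (right), with U for the T of the tags. The U part at the bottom of each bar is tallest in liver in both panels, 44.8% of tags and 42.4% of ends.

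The starts of the liver genes were searched for letters known from hepatocyte factors, since 88 of the 107 genes have a start sequence in RefSeq (GRCm38.p6). GTTAAT, a short form of the HNF1 site, was searched on both strands in the 250 bases before the start. It occurred in 23 of the 88 genes (26.1%), in 6.14% of 1042 other genes with a mean of at least 100 CPM and in 7.49% of all 27025 genes with a start sequence. CAAAGTCCA, a form of the HNF4 site, occurred in 4.55% of the liver genes, in 0.384% of the other genes and in 0.451% of all. TATAAA occurred in 26.1% of the liver genes, in 10.2% of the other genes and in 14.3% of all, and TTGCGCAA, a C/EBP palindrome, in none of the 88, in 0.384% and in 0.185%. Matches in Alb (32 bases before the start), Fgb (29 bases) and Fga (43 bases) are shown with the match in capitals, ATTAAC being GTTAAT read on the other strand.
Alb start: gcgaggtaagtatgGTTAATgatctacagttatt
Fgb start: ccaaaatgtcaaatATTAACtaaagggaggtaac
Fga start: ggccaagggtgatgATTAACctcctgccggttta
Pzp and Vtn also had a match to GTTAAT. No match to GTTAAT or CAAAGTCCA was found for Apoa2, Hpx, Ahsg, Apoa1, Apoh, Rbp4, Itih4 or Mbl2. A match is a run of letters and shows no binding.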

How the data were processed

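Tag lists of 6 libraries were analysed, 1 per tissue. Per the labels' protocols, the authors made them by ligation of an adaptor to polyadenylated RNA and cleavage with MmeI, and per the submitters' processing notes mapped reads with Bowtie to mm9. In each deposited file, column 4 holds a read and its count, and column 5 a score set by the authors that rises with that count and was not used. Here the 5′ end was taken as start + 1 on the plus strand and as the end on the minus strand. Reads listed at 2 places in a library were dropped (9.76% of liver lines). Counts were summed per 2 kb strand window or gene and scaled to 1000000 tags.

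No mm9 annotation was given. Tags that match RefSeq start or hairpin sequences exactly over 20 bases served as landmarks (1149 genes), and other ends were given to the RefSeq gene that their distance from the landmarks on both sides, or from one within 1 Mb, put them in. Each of 943 held-out landmarks fell where its own sequence put it, 97.7% of liver tags in genes of known strand were sense, and 75.3% of liver tags were named. Of the 107 genes higher in liver, 96 were placed from both sides and 21 had a matched start of their own. C3, Serpinc1, Slc27a5 and Mup3 were placed from 1 side. The planned naming through translated protein runs was not possible here and was replaced by this method.

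A lead is liver at least 4 times the highest other library, 0 taken as 3 tags. Ratios are of measured levels, with exact conditional binomial intervals, shares have Clopper-Pearson intervals and levels Poisson intervals, all at 95%. Where a library has no tag, the lead by the rule can be smaller than the measured ratio. PCR reads are not independent molecules, so intervals cover counting error only. No test was made with 1 library per tissue. Named genes are the 25 with most liver tags, the 15 with the largest lower bound of the lead, the richest 10 low or absent in liver, the markers, the 5 strongest ends, and 2 to 4 of each list by liver tags; a few others were named to show exceptions, and some genes that the rule picks are not reported here. The genes, lists and comparisons were chosen with earlier results of these data known. Python 3.11.15, numpy 2.4.6, pandas 2.3.3, scipy 1.17.1 and matplotlib 3.10.9 were used.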

Additional observations from a re-analysis of the deposited data

Results flagged for a closer look

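Reads listed at 2 places were left out of every comparison, and in liver they made up 7444 tags over both listings (8.62% of all liver tags), while brain had 9.73%, lung 9.98%, kidney 9.71%, ovary 11.2% and spleen 17.2%. They are noted because they carry signal outside the comparisons. The windows with most of them in liver were chr16:18532001-18534000 on the minus strand and chr17:39982001-39984000 on the plus strand, with 305 liver tags each and 1884 and 1885 in lung. A window at chr12:105384001-105386000 on the minus strand had 84 such tags in liver, against 0 in brain, 7 in lung, 11 in kidney, 0 in ovary and 2 in spleen. With these reads kept at each place, 119 windows and 115 genes were higher in liver, and 105 of these genes were among the 107.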

How the results depend on the processing

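The count of 121 windows higher in liver lay between 116 and 157 under the other settings run, except at a 10-fold rule, where it was 50. The 107 genes became 184 with the trimmed mean of M values, all 107 among them, and lay between 91 and 115 otherwise. That scaling was computed on the tested windows but applied to the full depths, so every count under it is uncertain. The count of 83 listed genes lay between 71 and 114. Counts of what is lower in liver were unstable. The 10 windows became 2 with the trimmed mean, 28 without the spleen library, 16 in 5 kb windows, 19 at a mean of at least 50 CPM, 19 at 20 tags over all libraries, 53 at 2-fold and 0 at 10-fold. The 36 genes became 4 with the trimmed mean, 17 with each end counted once, 91 without spleen and 19 at a mean of at least 100 CPM. With the trimmed mean, windows lower in liver were 125 against brain, 166 against lung, 107 against kidney and 69 against ovary, and those higher than ovary 352. The 10 strongest windows held 21.6% of liver tags as 1 kb windows and 3.83% when each end was counted once, and the 50 strongest 34.0% and 11.4%. First base U was 42.4% by ends. Of 191 recomputed leads of 32 named genes, 148 stayed within the counting interval of the main value, 43 moved out of it and none of a called gene changed direction. Ndrg2, not called, had 0.91 times the brain level, but 1.70 with the trimmed mean, 1.49 with each end counted once and 1.66 without adaptor-preceded ends. Counting each end once gave Alb a lead of 6.12 times. The causes were not tested. Shares of ends along the coding sequence and a shorter protein run were not run, since no protein sequences were used. No paired analysis was possible because each tissue has 1 library. Depth limits low genes: 0 tags allow 102.7 CPM in ovary.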

Other observations

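A pair of strong liver ends without a gene name were seen in all libraries. The end at chr1:24619958 on the minus strand had 602 liver tags, against 1267 in brain, 5314 in lung, 12279 in kidney, 716 in ovary, with 18 in spleen, a level 0.101 times that of kidney. The end at chr19:31161459 on the plus strand had 445 liver tags, against 970 in brain, 3122 in lung, 199 in kidney and 50 in ovary, with 121 in spleen. A window at chr3:81762001-81764000 on the minus strand had 192 liver tags, against 0 in brain, 14 in lung, 8 in kidney, 1 in ovary and 2 in spleen, and stays unnamed here.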
